A study of Mus musculus with 40 samples.

Results

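Brown adipose tissue was compared between 5 mice that had received antibodies blocking Jag1 and Jag2 and 5 mice that had received an antibody without a mouse target, 5 d after the dose. These 10 mice were chosen by their titles from the 40 mice of the series, in which 5 mice stood in each of 8 groups of antibody, time and thyroid hormone. All were male C57BL/6 mice from Jackson Laboratories, given as 10 to 12 weeks old in the series text and 10 to 14 weeks in the sample labels. Each mouse had 1 intraperitoneal dose, either 20 mg/kg of each Jag antibody or 40 mg/kg of anti-ragweed antibody as isotype control, and none of these 10 mice had thyroid hormone. The animals are called Jag antibody mice (title numbers 6 to 10) and control mice (title numbers 1 to 5), and per-mouse values follow that order. The other times, 15 h and 7 d, are used where a difference between times was tested.

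Jag1 and Jag2 are ligands that sit in the membrane of one cell and engage Notch receptors on its neighbour. The receptor is then cut, and its freed inner part joins the DNA-binding protein Rbpj to switch on genes such as those of the Hes and Hey families. Brown fat oxidises fatty acids to make heat through the uncoupling protein Ucp1, and it also makes new fatty acids from glucose through an enzyme chain that runs from Acly through Acaca to Fasn. Brown fat depots of the mouse lie next to skeletal muscle, whose fibres carry a contractile gene programme that mature fat cells do not use. The antibodies bind protein, so transcripts of Jag1 and Jag2 do not check the labels. Jag1 had a log2 fold change of 0.07 (adjusted p = 0.887, SE 0.24) in edgeR's quasi-likelihood test, with Benjamini-Hochberg adjustment over all genes as throughout, and Jag2 had one of -0.23 (adjusted p = 0.707, SE 0.31).

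The 10 libraries held 15925792 to 36511893 counts, and their totals did not differ between the groups beyond the spread between mice (exact permutation p = 0.381, two-sided, n = 5 in each group). The most alike libraries of one group, those of Jag antibody mice 6 and 7, still differed beyond sampling noise, with a chi-square of 19.4 per degree of freedom. The mice of a group are separate animals by their titles. Ucp1, which defines brown fat, was present in every library at 3760.5, 8277, 2298, 3014 and 3891 CPM in the control mice and 4518, 4707, 5277, 7793 and 3128 CPM in the Jag antibody mice (CPM, counts relative to the scaled library total). The share of counts from genes of the mitochondrial genome was 9.72% to 15.5% in control mice and 15.5% to 22.2% in Jag antibody mice, with no overlap (exact permutation p = 0.00794, the smallest that these groups can give, adjusted 0.0132 over 5 library measures). Its part in the results below was not tested.

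Skeletal muscle transcripts were lower in Jag antibody mice. Of 70 tested genes in 6 lists of skeletal muscle genes, 58 were called lower in Jag antibody mice and 0 higher, where a gene is called when its adjusted p is under 0.05. All 70 had an unadjusted p under 0.05, and DESeq2 called 68 lower and 0 higher. Over all 17079 tested genes, 5.93% were called lower and 2.09% higher. The muscle score of a mouse, its log2 CPM averaged over 8 fast-fibre genes (Atp2a1, Tnni2, Tnnt3, Myh1, Myh4, Mylpf, Ckm and Acta1), was 8.27, 5.10, 11.3, 11.2 and 13.7 in the control mice. In the Jag antibody mice it was 1.33, 2.20, -2.69, -0.45 and -1.08. Every control mouse stood above every Jag antibody mouse (exact permutation p = 0.00794, adjusted 0.0132 over 5 library measures). The score genes and the 6 lists were chosen with earlier results of these data known, so this p and the list counts are not independent evidence. In this bulk tissue, fewer cells of a type and less RNA per cell cannot be told apart. How the depots were dissected is not given in the sources used here, so whether the muscle RNA came from fibres in the depot or from adjoining muscle was not tested.

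The spread of muscle RNA was wide among control mice and in the other groups too. The means of the 6 other groups of the series lay between 2.49 and 4.77, so control mice at 5 d were the highest of the 8 groups and Jag antibody mice at 5 d the lowest. Single mice of other groups reached from -1.96 to 12.3. Genes linked to muscle were defined without the 10 mice compared: a gene is muscle-linked when its log2 CPM, centred on group means, had a Pearson r of at least 0.6 with the muscle score over the 30 mice of the 6 other groups. This held for 621 of the 17079 genes. They took 1.65%, 0.787%, 8.76%, 7.03% and 27.9% of all counts in the control mice. The share was 0.558%, 0.666%, 0.523%, 0.553% and 0.665% in the Jag antibody mice. Control mouse 5 held the most muscle RNA and control mouse 2 the least of its group, which was still more than in any Jag antibody mouse.

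**Figure D1:**
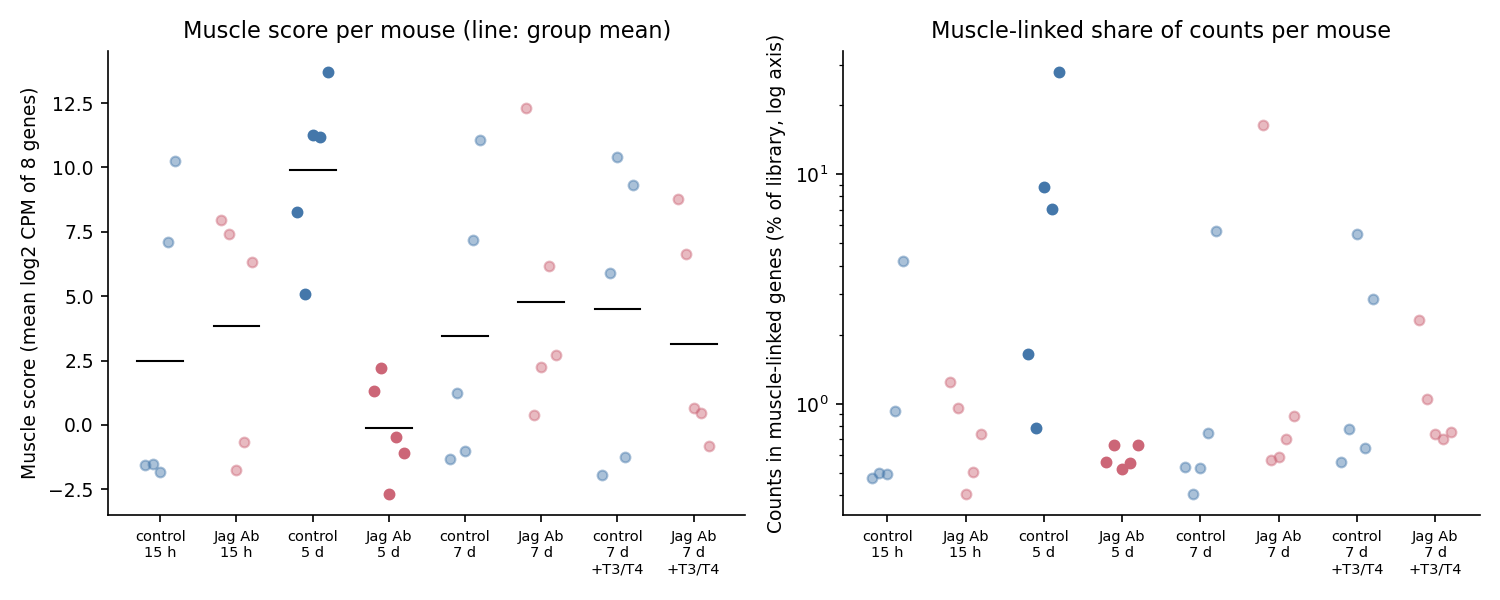
Left, the muscle score of each mouse (mean log2 CPM of 8 genes) in the 8 groups, with a line at each group mean; right, the percent of a library's counts in the 621 muscle-linked genes on a log axis. At 5 d the control mice sit between 5.10 and 13.7 and the Jag antibody mice between -2.69 and 2.20, while the other groups overlap.

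Of the 621 muscle-linked genes, 418 (67.3%) were called lower and 0 higher, with a median log2 fold change of -4.56 over all 621. Of the 16458 other genes, 594 (3.61%) were called lower and 357 (2.17%) higher, with a median of 0.06. Over all tested genes, called or not, every Jag antibody mouse was above every control mouse for 304 genes (1.78%) and below for 539 (3.16%). Among the 621 muscle-linked genes this held for 0 above and 222 below, so the groups overlapped for the rest. At the edge of the class, Kcnj2 (r = 0.5994, log2 fold change -3.39) and Sfrp2 (0.5992, -2.43) lay just outside, and Stab2 (0.6001, -2.19) and Fem1a (0.6003, -0.57) just inside. The class is a cut through a continuous range: among other genes with r under 0.3, 689 of 15182 were called, 351 higher and 338 lower. The 1276 other genes with r from 0.3 upwards held 6 higher and 256 lower calls. With the muscle score as a covariate in the same model, 0 of the 621 muscle-linked genes were called, with 82 at an unadjusted p under 0.05, and their median was -0.27. Loss of these calls was built in, because the class was chosen by correlation with this same score and holds the 8 score genes. It is no evidence about the antibody. The covariate cannot separate muscle RNA from antibody where the groups do not overlap. There the adjustment extends a slope, fitted among mice within groups, across scores that the 2 groups do not share.

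**Figure D2:**
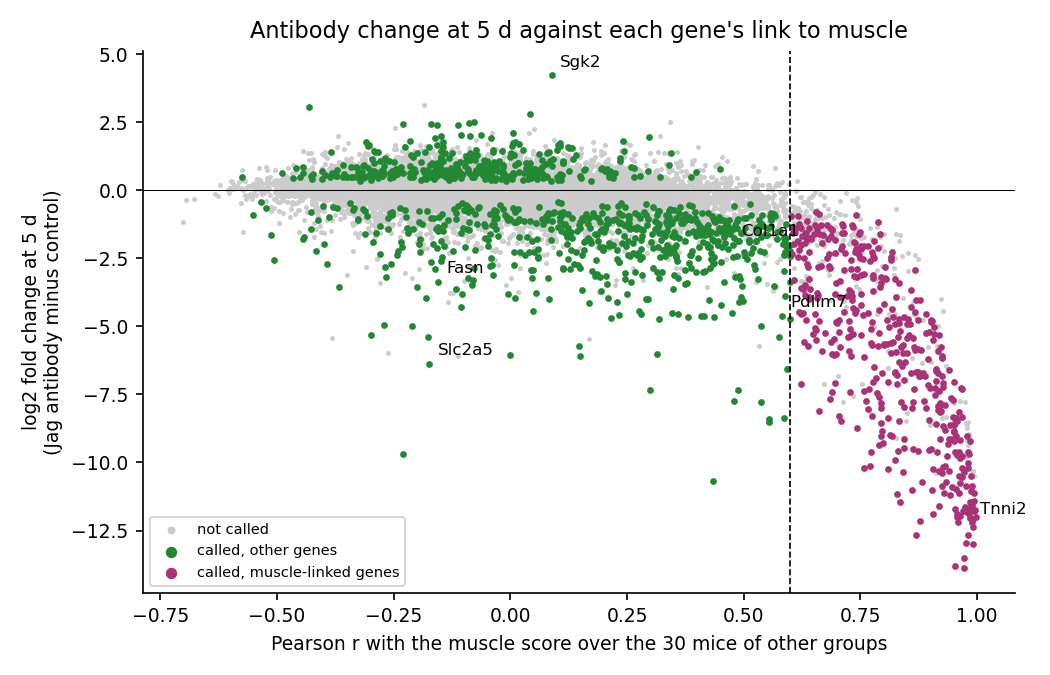
Each point is a tested gene, with its Pearson r with the muscle score over 30 mice of other groups on the x axis and its log2 fold change at 5 d (Jag antibody minus control) on the y axis; the dashed line is r = 0.6. Muscle-linked called genes, right of the line, are all lower, while Sgk2, Fasn and Slc2a5 lie far from the line.

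Genes of the thick filament, the myosin part of the contractile unit, were called lower in 11 of 13 cases, with a median log2 fold change of -10.22. Myl1, a myosin light chain of fast fibres, was at 145, 141, 1768, 906 and 14666 CPM in the control mice and 31.8, 40.3, 37.7, 43.2 and 25.1 CPM in the Jag antibody mice. The groups did not overlap, although Jag antibody mice kept 25.1 to 43.2 CPM of it, and the log2 fold change was -6.63 (adjusted p = 0.00656, SE 1.42). Thin filament genes were called lower in 10 of 12 cases (median -9.83). Among them Tnnt3, fast troponin T, ranged over 53.7 to 34045 CPM in control and 0 to 4.91 CPM in Jag antibody mice, with a log2 fold change of -12.00 (adjusted p = 0.0433, SE 3.75). Tmod4, which caps the actin filament, had one of -8.84 (adjusted p = 0.0247, SE 2.43), and Lmod3, which builds that filament, one of -8.36 (adjusted p = 0.0197, SE 2.21). The Z disc, which anchors the filaments, had 9 of 11 genes called lower (median -11.10), among them Csrp3 at 2.71 to 1299 CPM in control and 0 to 0.497 CPM in Jag antibody mice and Myoz1 at 17.7 to 4188 CPM in control and 0 to 0.856 CPM in Jag antibody mice. In every one of these genes the control mice of highest muscle score, 3, 4 and 5, were also the highest.

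Calcium handling genes, which release and reclaim calcium for contraction, were called lower in 10 of 13 cases (median -10.01). Sln, a regulator of the calcium pump, was at 0.629, 1.40, 175, 32.5 and 754 CPM in the control mice and 0, 0.249, 0, 0 and 0 CPM in the Jag antibody mice. Every control mouse stood above every Jag antibody mouse, 4 of which had 0 counts, and the log2 fold change was -12.14 (adjusted p = 0.00934, SE 2.79). Mrln, another small regulator of that pump, was at 1.35 to 203 CPM in control mice and had 0, 0, 0, 1 and 1 counts in Jag antibody mice. Its log2 fold change of -10.99 (adjusted p = 0.0105, SE 2.60) is thus a fitted value near the level of no counts. All 12 genes of muscle energy metabolism were called lower (median -8.84). Mb, the oxygen store myoglobin, was at 68.5, 41.1, 2668, 1418 and 11852 CPM in the control mice and 29.7, 15.3, 3.19, 7.95 and 7.01 CPM in the Jag antibody mice. Control mice 1 and 2 exceeded the highest Jag antibody mouse by less than 3 times, and control mouse 5 by far more, with a log2 fold change of -7.99 (adjusted p = 0.0122, SE 1.95). Phkg1, a subunit of muscle phosphorylase kinase, overlapped between the groups, with a log2 fold change of -4.78 (adjusted p = 0.0209, SE 1.28).

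Regulators of muscle fate and the neuromuscular junction had smaller falls by their median, with 6 of 9 tested genes called lower (median -4.53). For 3 of the 9 the groups did not overlap. Chrna1, the muscle acetylcholine receptor subunit, was at 0.779, 0.136, 23.5, 9.83 and 51.3 CPM in the control mice and had 0 counts in all 5 Jag antibody mice. Against a floor of 3 counts per library it was at least 119-fold lower, or 59.5-fold without control mouse 5, and control mouse 2 lay under that floor of 0.144 CPM, adjusted p = 0.0123. Myod1, the factor that commits cells to muscle, was at 0.359, 0.0904, 12.4, 2.48 and 14.1 CPM in the control mice and also at 0 in all 5 Jag antibody mice. It was at least 40.9-fold lower, or 26.7-fold without control mouse 5 (adjusted p = 0.0237 with all mice), with control mouse 2 again under the floor. Over the 6 lists, 68 of 70 genes were muscle-linked, and 0 were called with the muscle score as a covariate, with 13 at an unadjusted p under 0.05. This loss was built in too, as the lists hold the 8 score genes and nearly all members follow that score. Several muscle calls ended when 1 mouse was left out. Without control mouse 5, Csrp3, Eef1a2, Lmod3, Mrln, Myot, Myoz1, Ckmt2, Phkg1, Tmod4, Tnni2 and Tnnt3 were no longer called, and all of these except Mrln also lost their calls in other fits that left out 1 mouse. Sln, Chrna1, Mb, Myl1 and Myl3 were called in each of the 10 fits.

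Shown first for muscle are 2 promoters that carry CAGCTG, an E-box read by myogenic factors, taken from RefSeq on GRCm38.p6 as 250 bases before to 50 after the start of the gene, 5′ to 3′ on the gene's strand. Capitals mark the motif, searched on both strands. The Mylpf promoter lies at chr7:127211358-127211657, plus strand, with the motif beginning at -51 from the start, and that of Acta1 at chr8:123894726-123895025, minus strand, with the motif at -221.
Mylpf: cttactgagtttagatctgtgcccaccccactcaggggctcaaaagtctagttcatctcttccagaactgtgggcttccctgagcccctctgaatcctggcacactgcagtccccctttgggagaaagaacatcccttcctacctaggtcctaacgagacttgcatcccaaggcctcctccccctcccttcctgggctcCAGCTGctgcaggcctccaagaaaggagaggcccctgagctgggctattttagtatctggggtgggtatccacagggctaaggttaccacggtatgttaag
Acta1: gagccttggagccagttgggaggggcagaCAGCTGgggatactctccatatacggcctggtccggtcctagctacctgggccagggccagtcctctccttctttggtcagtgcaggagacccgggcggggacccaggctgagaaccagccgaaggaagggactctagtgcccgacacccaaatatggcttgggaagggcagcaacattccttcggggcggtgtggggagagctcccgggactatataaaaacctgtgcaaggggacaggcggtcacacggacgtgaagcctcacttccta
The motif was found in 29.4% of 408 promoters of muscle-linked genes called lower, against 16.1% of 14840 promoters of all tested genes. In promoters of other genes the share was 19.2% of 536 for those called lower and 17.9% of 335 for those called higher. A match describes these letters only.

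Genes that both muscle and brown fat use did not share the fall of the muscle genes by their fold changes, 7 positive and 1 negative. Of 8 such genes 0 were called by edgeR, DESeq2 or limma, 2 had an unadjusted p under 0.05 in edgeR, and their median log2 fold change was 0.40. As edgeR called 8.02% of all tested genes, few calls among 8 genes would be usual. Cox8b, a subunit of cytochrome oxidase, was at 709, 4045, 1062, 999 and 3701 CPM in the control mice and 3345, 3981, 862, 3615 and 1363 CPM in the Jag antibody mice, with control mouse 5 and control mouse 2 at the top of their group. Pdk4, which holds pyruvate back from oxidation, had a log2 fold change of 0.68 (adjusted p = 0.173, SE 0.31), and Cpt1b, the mitochondrial gate for fatty acids in these tissues, had 0.48 (adjusted p = 0.338, SE 0.29). None of the 8 was muscle-linked.

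Among adipose genes, fatty acid synthesis had the most called members. Of 21 genes in the list, 8 were called lower and 0 higher (Pgd, Fasn, Acly, Slc25a1, Acaca, Acss2, Me1 and Scd2). For comparison, 5.93% of all tested genes and 3.61% of those outside the muscle-linked class were called lower. All 21 fold changes were negative, with a median of -1.11. None of the 21 was muscle-linked, but that class holds positive r only. In this list r with the muscle score ran from -0.626 to 0.271, with -0.51 for Pgd. With the muscle score as a covariate 6 were called lower, against 0.422% of all tested genes, and the median was -1.51. The list was drawn up with earlier results of these data known, so its count is not independent evidence.

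Following the chain from citrate, Slc25a1, which carries citrate out of mitochondria, was at 350.0, 803, 799, 610.1 and 499 CPM in the control mice and 105, 185, 145, 184 and 162 CPM in the Jag antibody mice. The lowest control mouse was above the highest Jag antibody mouse, with a log2 fold change of -1.97 (adjusted p = 0.013, SE 0.49). Acly, which splits citrate into acetyl-CoA, was at 2124, 2676, 3091, 3971 and 608 CPM in the control mice and 205, 208, 368, 224 and 378 CPM in the Jag antibody mice. Control mouse 5, with the most muscle RNA, was the lowest control mouse and still exceeded every Jag antibody mouse (-3.17 [adjusted p = 0.0116, SE 0.77] on the log2 scale). Acss2 makes acetyl-CoA from acetate, and its values ran over 227 to 719 CPM in control and 102 to 142 CPM in Jag antibody mice, a log2 fold change of -1.90 (adjusted p = 0.015, SE 0.49). Acaca, which commits acetyl-CoA to fatty acids, was at 593, 526, 736, 962 and 358 CPM in the control mice and 90.3, 148, 137, 138 and 161 CPM in the Jag antibody mice, again without overlap (-2.23, adjusted p = 0.0143, SE 0.57).

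Fasn, the fatty acid synthase (chromosome 11, 120805846 to 120824547, minus strand, GRCm38), was at 6319.7, 9091, 14456, 15409 and 2979.6 CPM in the control mice and 632, 777, 936, 939.6 and 1407 CPM in the Jag antibody mice. The 5 control mice all lay above the 5 Jag antibody mice, and the log2 fold change was -3.36 (adjusted p = 0.0111, SE 0.81). Pgd, which supplies NADPH for synthesis, was at 297, 665, 440.1, 535 and 239.8 CPM in the control mice and 133, 135, 139, 164 and 133 CPM in the Jag antibody mice, with Jag antibody mice in a narrow range below all control mice (-1.63, adjusted p = 0.00711, SE 0.36). Scd2, a desaturase, was called lower at -2.34 (adjusted p = 0.0388, SE 0.72), and Me1, malic enzyme, at -1.87 (adjusted p = 0.0151, SE 0.48). Neither was called with the muscle covariate, at -3.06 (adjusted p = 0.0607) and -2.24 (adjusted p = 0.0536). Scd1, the abundant desaturase of fat, overlapped between the groups at 10324 to 28435 CPM in control and 6369 to 13535 CPM in Jag antibody mice and was not called (log2 fold change -1.11, adjusted p = 0.131, SE 0.46). Thrsp, a lipogenic protein induced by thyroid hormone, was at -1.01 (adjusted p = 0.247, SE 0.53), and Tkt, of the pentose phosphate pathway, at -1.25 (adjusted p = 0.083, SE 0.46) without overlap. The transcription factors that drive this programme were not called, with log2 fold changes of -0.82 (adjusted p = 0.105, SE 0.32) for Srebf1 and -0.39 (adjusted p = 0.517, SE 0.33) for Mlxipl.

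**Figure D3:**
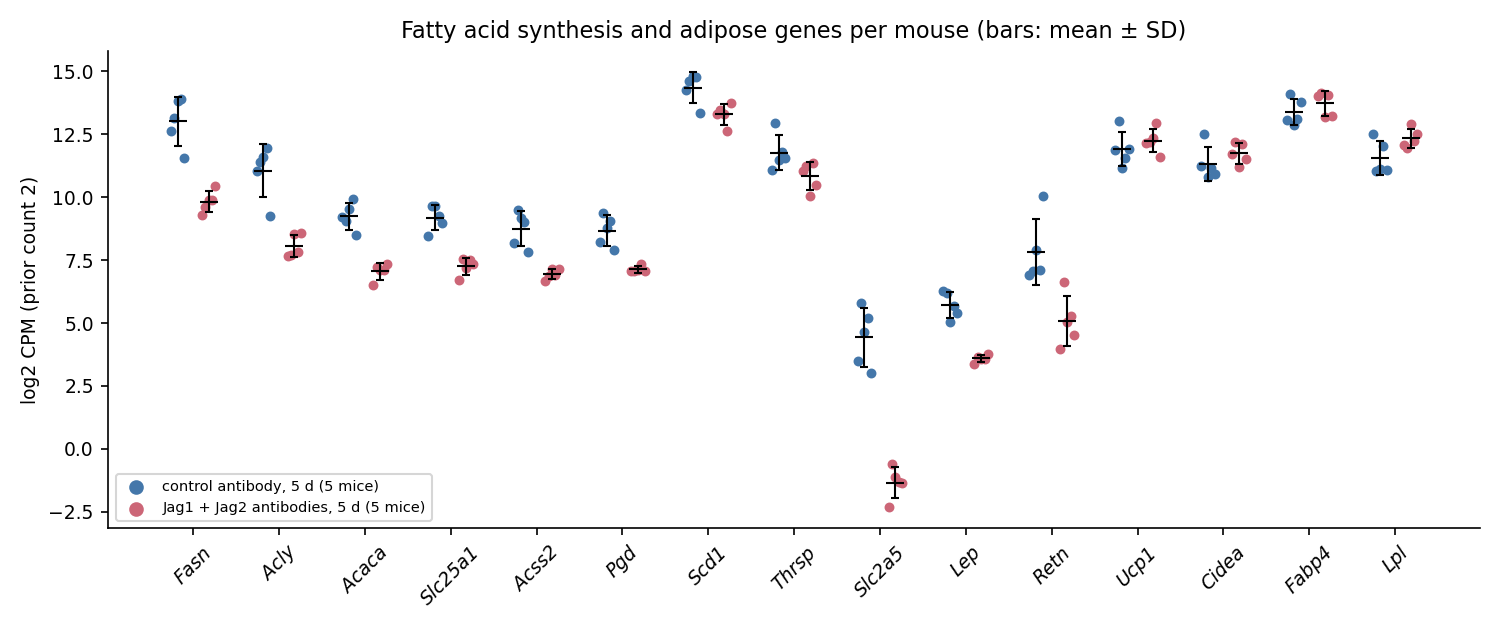
Log2 CPM (prior count 2) of fatty acid synthesis, adipokine and other adipose genes in each mouse, control in blue and Jag antibody in red, with the mean and SD over 5 mice. Fasn, Acly, Acaca, Slc25a1, Acss2, Pgd, Slc2a5, Lep and Retn do not overlap between the groups, while Ucp1, Cidea, Fabp4 and Lpl do.

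The start of Fasn and that of Slc25a1 are shown as examples from the 6 list genes called lower with and without the covariate. CACGTG, the E-box of lipogenic factors, is in capitals where it occurs. The Fasn window lies at chr11:120824498-120824797, minus strand, and holds neither CACGTG nor the 2 other motifs searched, which are TCACNCCAC and the myogenic CAGCTG. The Slc25a1 window lies at chr16:17928170-17928469, minus strand, with CACGTG at -239 from the start. The windows of Acly, Acss2 and Pgd, called in the same fits, hold none of these motifs. That of Acaca holds none either, but it lies at chr11:84195188-84195487, plus strand, inside the gene, which begins at 84129672. The Acaca window thus does not describe the outermost start of that gene.
Fasn: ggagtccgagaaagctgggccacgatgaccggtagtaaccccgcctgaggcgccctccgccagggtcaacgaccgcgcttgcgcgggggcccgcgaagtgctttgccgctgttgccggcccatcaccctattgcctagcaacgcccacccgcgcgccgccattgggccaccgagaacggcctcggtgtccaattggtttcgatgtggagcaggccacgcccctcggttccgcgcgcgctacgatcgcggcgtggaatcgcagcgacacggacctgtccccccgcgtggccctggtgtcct
Slc25a1: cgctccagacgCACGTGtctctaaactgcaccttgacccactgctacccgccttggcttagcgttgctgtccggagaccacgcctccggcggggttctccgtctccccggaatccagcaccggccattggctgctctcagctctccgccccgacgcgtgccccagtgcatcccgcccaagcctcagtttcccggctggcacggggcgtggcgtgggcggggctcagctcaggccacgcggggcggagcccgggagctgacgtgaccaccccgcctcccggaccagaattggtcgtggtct
CACGTG was found in 13.0% of 23 promoters of the fatty acid synthesis list, in 18.5% of 54 promoters of genes called lower with the muscle covariate, and in 9.39% of all 14840. TCACNCCAC, the core of a sterol regulatory element, was in 4.35%, 1.85% and 1.19% of the same sets.

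Slc2a5, the fructose carrier (chromosome 4, 150119283 to 150144169, plus strand), had the largest fall among the named genes outside the muscle-linked class. It was at 11.2, 54.8, 24.6, 37.1 and 7.97 CPM in the control mice and 0.107, 0.559, 0.370, 0.308 and 0.293 CPM in the Jag antibody mice. The highest Jag antibody mouse was more than 10 times below the lowest control mouse, and the log2 fold change was -6.37 (adjusted p = 0.00843, SE 1.44). With the muscle covariate it was -7.83 (adjusted p = 0.00658). Control mouse 5, highest in muscle RNA, was the lowest of its group for this gene, and r with the muscle score was -0.17.

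Beside 5.93% of all tested genes called lower, cholesterol synthesis had 3 of 20 called lower and 0 higher (median -0.75). These were Mvd, Nsdhl and Pmvk, enzymes of the mevalonate and sterol steps. Nsdhl was at 34.1, 72.3, 45.5, 41.7 and 35.6 CPM in the control mice and 19.4, 22.8, 23.3, 22.8 and 20.5 CPM in the Jag antibody mice, without overlap (-1.07, adjusted p = 0.0263, SE 0.30), and Mvd and Pmvk overlapped (-1.38 [adjusted p = 0.0206, SE 0.37] and -1.07 [adjusted p = 0.0453, SE 0.34]). With the covariate 3 were called lower as well, but these were Nsdhl (-1.55, adjusted p = 0.0143), Sqle (-1.83, adjusted p = 0.0387) and Lss (-1.32, adjusted p = 0.0316). Hmgcs1, an early enzyme of the path, had a log2 fold change of 0.36 (adjusted p = 0.51, SE 0.30).

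Of 20 genes of glucose uptake, glycolysis and glycerol handling, 4 were called lower and 1 higher (median -0.30). Over all tested genes 5.93% were called lower and 2.09% higher. Pkm, Tpi1, Ldha and Gpi1 are glycolytic, and all 4 overlapped between the groups. Pkm was at 269 to 584 CPM in control and 214 to 285 CPM in Jag antibody mice (-0.81, adjusted p = 0.00969, SE 0.19) and was called with the covariate too. Tpi1 was at 236, 555, 543, 527 and 2271 CPM in the control mice and 390.2, 412, 247, 386 and 272 CPM in the Jag antibody mice. Control mouse 5 alone stood far above the other 9 mice, and without control mice 3, 4 and 5 the log2 fold change moved from -1.28 to -0.22. Aqp7, the glycerol channel of fat cells, was called higher at 0.73 (adjusted p = 0.0482, SE 0.24), a call lost in 7 of 10 alternatives, among them RLE factors and TMM scaling without muscle-linked and mitochondrial genes. Slc2a4, the insulin-responsive glucose carrier, was not called (-0.67, adjusted p = 0.246, SE 0.35).

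Where 5.93% of all tested genes were called lower and 2.09% higher, thermogenic and identity genes of brown fat were mostly not called. Of 20, 1 was lower and 1 higher, with a median of 0.27. At an unadjusted p under 0.05 there were 8, and DESeq2 called 2 lower and 1 higher and limma 0. Ucp1, at the values given above, had a log2 fold change of 0.26 (adjusted p = 0.749, SE 0.41), and Cidea, a lipid droplet protein of brown fat, 0.33 (adjusted p = 0.63, SE 0.36). Dio2, which activates thyroid hormone in the tissue, was at 486, 60.6, 29.1, 211 and 83.7 CPM in the control mice and 66.7, 129.7, 232, 159 and 205 CPM in the Jag antibody mice. The groups overlapped fully (-0.14, adjusted p = 0.923, SE 0.63). Ppargc1a, a coactivator of mitochondrial genes, was called higher at 25.1 to 81.6 CPM in control and 59.2 to 149 CPM in Jag antibody mice (1.11, adjusted p = 0.0489, SE 0.36), a call lost in 9 of 10 alternatives, both scalings named for Aqp7 included, and Bmp8b was called lower at -3.54 (adjusted p = 0.0143, SE 0.90) from under 1 CPM in all 10 mice.

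Of 15 genes of adipocyte identity and adipokines, 2 were called lower, Lep and Retn, and the median was 0.27. Over all tested genes 5.93% were called lower. Lep, leptin, was at 76.4, 73.7, 33.0, 51.4 and 42.6 CPM in the control mice and 10.3, 12.6, 11.9, 11.6 and 13.7 CPM in the Jag antibody mice. All control mice lay above all Jag antibody mice, a log2 fold change of -2.20 (adjusted p = 0.0131, SE 0.55), and -2.02 (adjusted p = 0.132) with the covariate. Retn, resistin, was at 119, 134, 242, 138 and 1050.4 CPM in the control mice and 15.4, 98.8, 33.2, 38.9 and 23.0 CPM in the Jag antibody mice. It did not overlap either, but control mouse 5 was far above the rest, and without control mice 3, 4 and 5 the log2 fold change was -1.60 in place of -3.01. Fabp4, the fatty acid carrier of fat cells, had 0.33 (adjusted p = 0.486, SE 0.26), Adipoq had 0.40 (adjusted p = 0.336, SE 0.24) and Pparg, the master factor of fat cells, 0.45 (adjusted p = 0.146, SE 0.19).

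In the lists of fat storage, breakdown and oxidation edgeR called no gene. It called 8.02% of all tested genes, a share that gives few calls in lists of this length. Of 20 genes of triglyceride storage and lipolysis, 0 were called by edgeR (lowest adjusted p = 0.0561, median 0.27), 4 had an unadjusted p under 0.05, and DESeq2 called 1 and limma 0. Of 19 genes of fatty acid oxidation, edgeR, DESeq2 and limma called 0 (lowest adjusted p in edgeR = 0.0957, median 0.41), with 6 at an unadjusted p under 0.05. Fold changes were positive for 15 and negative for 5 of the 20 storage and lipolysis genes. For the 19 oxidation genes 17 were positive and 2 negative. Lpl, which frees fatty acids from blood lipoproteins, was at 2132 to 5891 CPM in control and 3980.1 to 7743 CPM in Jag antibody mice (0.68, adjusted p = 0.127, SE 0.28). Acadl, an acyl-CoA dehydrogenase, was at 1565 to 3537 CPM in control and 3329.5 to 4177 CPM in Jag antibody mice (0.56, adjusted p = 0.129, SE 0.23). The same tools called 0 of 27 nuclear respiratory chain genes (median 0.03) and 0 of the 13 protein-coding mitochondrial genes (median 0.33), with 0 and 2 at an unadjusted p under 0.05, beside the higher mitochondrial share given above. For scale, the median over all 17079 genes was 0.04.

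**Figure D4:**
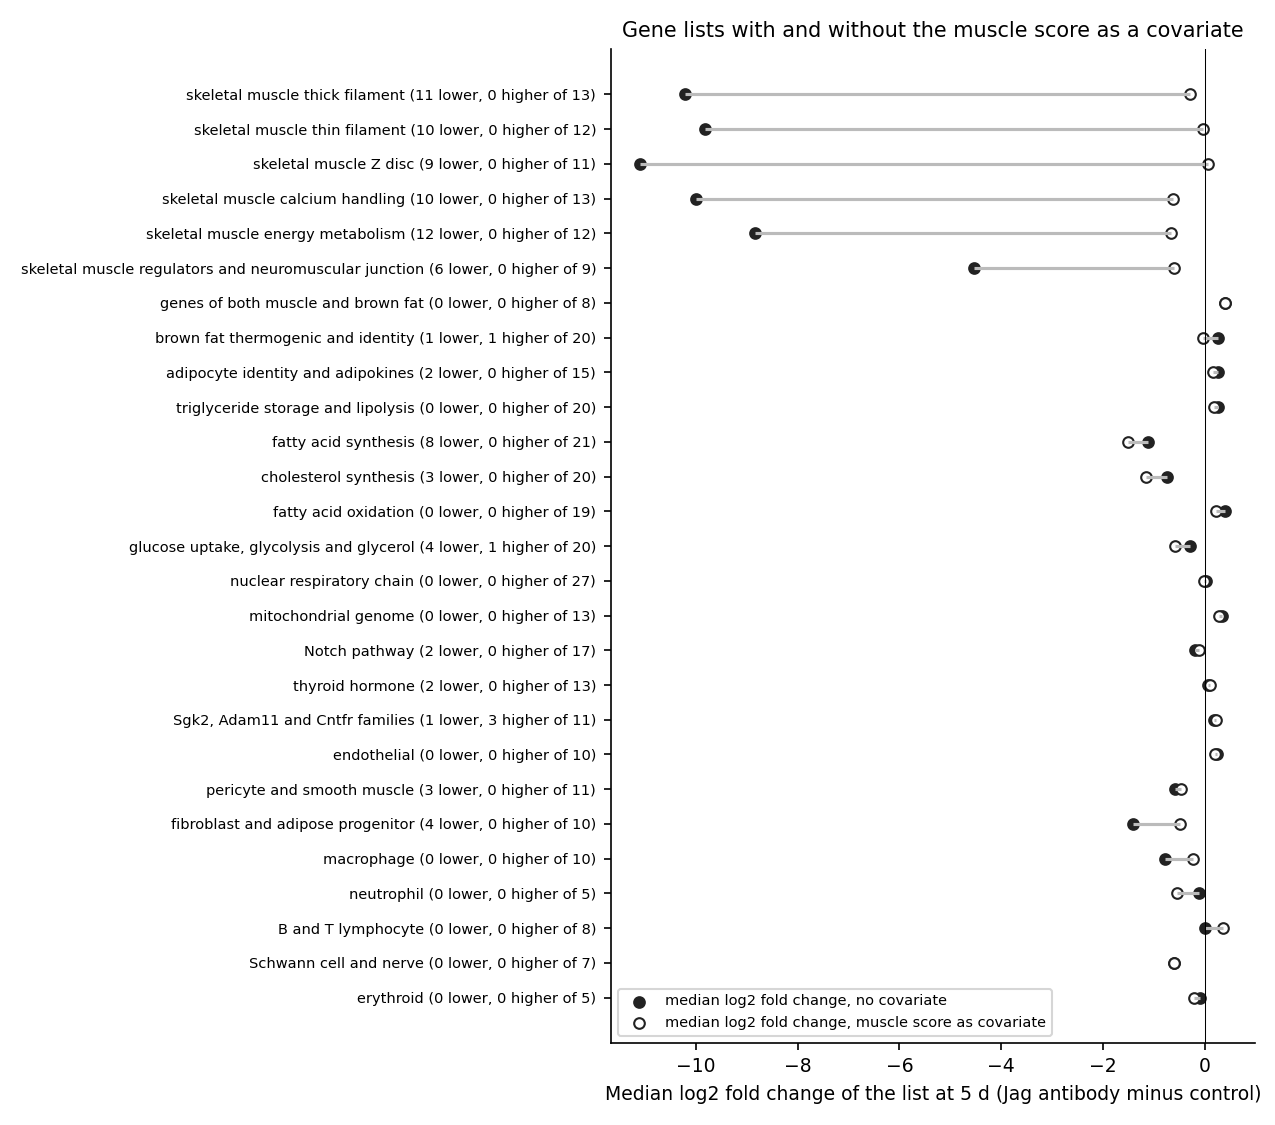
Median log2 fold change at 5 d (Jag antibody minus control) of each gene list, without (filled) and with (open) the muscle score as a covariate; the labels count genes called lower and higher of those tested. The muscle lists, which hold the genes of that score, have medians of -11.10 to -4.53 without the covariate and -0.66 to 0.06 with it. Fatty acid synthesis moves from -1.11 to -1.51.

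Notch pathway genes had 2 of 17 tested called lower, Mfng and Notch3, with a median of -0.20. Over all tested genes 5.93% were called lower. Mfng, a glycosyltransferase that modifies Notch receptors, was at 14.3, 30.9, 31.8, 15.5 and 43.7 CPM in the control mice and 10.9, 13.5, 6.93, 11.8 and 7.73 CPM in the Jag antibody mice. The groups did not overlap (-1.42, adjusted p = 0.00943, SE 0.33), and with the covariate the value was -0.98 (adjusted p = 0.242). Notch3, the receptor of mural cells, was at 6.80 to 41.0 CPM in control and 6.96 to 14.2 CPM in Jag antibody mice. It overlapped through control mice 2 and 5 at 12.7 and 6.80 CPM, and its call was lost in 7 of 10 fits that left out 1 mouse. The receptor target genes were not called, with -0.20 (adjusted p = 0.704, SE 0.26) for Hes1, -0.41 (adjusted p = 0.384, SE 0.27) for Hey1 and 0.16 (adjusted p = 0.862, SE 0.42) for Heyl.

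Thyroid hormone genes had 2 of 13 called lower, where 5.93% of all tested genes were. Hr, a corepressor induced by the hormone, was at 24.7, 33.8, 35.1, 39.9 and 27.1 CPM in the control mice and 5.03, 18.3, 10.4, 9.69 and 18.8 CPM in the Jag antibody mice, without overlap (-1.36, adjusted p = 0.00563, SE 0.29). Crym, a cytosolic hormone-binding protein, was at 0.180 to 1.07 CPM in control and 0 to 0.160 CPM in Jag antibody mice (-3.17, adjusted p = 0.0361, SE 0.96). Thra, the main receptor, had 0.34 (adjusted p = 0.33, SE 0.21), and Klf9, another induced gene, 0.41 (adjusted p = 0.484, SE 0.33). Neither Hr nor Crym was called with the covariate.

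Higher genes were led by Sgk2, a kinase of the serum and glucocorticoid family (chromosome 2, 162987330 to 163014127, plus strand). It was at 3.09, 0.859, 0.241, 0.561 and 0.923 CPM in the control mice and 21.6, 11.2, 30.1, 32.8 and 11.9 CPM in the Jag antibody mice. The lowest Jag antibody mouse was more than 3 times the highest control mouse, and the log2 fold change was 4.22 (adjusted p = 0.00542, SE 0.88), or 4.31 (adjusted p = 0.0257) with the covariate. Adam11, a membrane protein of the disintegrin family without protease activity, was at 6.41, 5.87, 7.15, 6.49 and 2.85 CPM in the control mice and 78.4, 31.8, 12.3, 14.3 and 19.7 CPM in the Jag antibody mice. Jag antibody mice varied from 12.3 to 78.4 CPM, all above control (2.43, adjusted p = 0.00248, SE 0.44). Cntfr, the receptor subunit that binds ciliary neurotrophic factor, was at 14.5, 11.2, 10.0, 12.1 and 14.8 CPM in the control mice and 38.7, 42.2, 37.6, 62.3 and 64.5 CPM in the Jag antibody mice, a log2 fold change of 1.97 (adjusted p = 0.0226, SE 0.54). A list of 11 genes was drawn from the families of these 3 genes after results were known. It held 4 called genes, these 3 higher and 1 lower, beside 2.09% higher and 5.93% lower over all tested genes. The 3 higher calls were built into the list, so its count is no evidence about the families. All 4 were also called with the covariate. The members not called include Sgk1 (0.37, adjusted p = 0.34, SE 0.23), Lifr (0.45, adjusted p = 0.236, SE 0.23) and Il6st (-0.00, adjusted p = 0.994, SE 0.24).

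The 9 others of the 12 largest rises outside the muscle-linked class had log2 fold changes of 1.38 (Adtrp) to 2.03 (Rab17). Slc27a2, a fatty acid transporter and acyl-CoA synthetase, was at 66.7 to 171 CPM in control and 211 to 393 CPM in Jag antibody mice (1.42, adjusted p = 0.00969, SE 0.33). Sdc4, a syndecan of the cell surface, was at 51.8 to 137 CPM in control and 141 to 310.0 CPM in Jag antibody mice (1.42, adjusted p = 0.0125, SE 0.35). Gramd1b, which moves cholesterol from the cell membrane inwards, was at 27.8 to 63.2 CPM in control and 83.0 to 162 CPM in Jag antibody mice (1.39, adjusted p = 0.00749, SE 0.31). Adtrp, which hydrolyses fatty acid esters of hydroxy fatty acids, was at 39.6 to 94.7 CPM in control and 123 to 246 CPM in Jag antibody mice (1.38, adjusted p = 0.00891, SE 0.32). Dcun1d3, a cullin neddylation factor, and Ccdc62 rose by 1.48 (adjusted p = 0.00336) and 1.47 (adjusted p = 0.00316), and both held with the covariate, at 1.38 and 1.45. Pbld1 rose by 1.57, Rab17, a small GTPase, by 2.03 and Mir17hg, the host transcript of a microRNA cluster, by 1.38 (adjusted p = 0.0201, 0.0491 and 0.0439). These 3 lost their calls with the covariate, as did Slc27a2, Sdc4, Gramd1b and Adtrp, and Rab17 also with RLE factors and with TMM scaling without muscle-linked and mitochondrial genes.

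Among the largest falls beside those above, Spon2, a secreted matrix protein, was at 4.64, 3.75, 9.66, 6.22 and 12.2 CPM in the control mice and 1.23, 0.994, 0.277, 0.564 and 0.799 CPM in the Jag antibody mice. The groups did not overlap (-3.23, adjusted p = 0.00034, SE 0.48), and it held with the covariate at -2.49 (adjusted p = 0.00872). Camk2b, a calcium-dependent kinase, was at 8.66, 25.2, 36.8, 36.5 and 37 CPM in the control mice and 4.33, 2.61, 2.82, 3.54 and 4.77 CPM in the Jag antibody mice (-2.99, adjusted p = 0.000511, SE 0.45), and at -2.47 (adjusted p = 0.00948) with the covariate. Fer1l6, of the ferlin family, was at 2.35 to 9.08 CPM in control and 0.416 to 1.18 CPM in Jag antibody mice (-2.64 [adjusted p = 0.00248, SE 0.48]; -3.01 [adjusted p = 0.00473] with it). Pdlim7, a scaffold of actin fibres with an r of 0.58, stood just under the muscle-linked threshold and fell by 4.60 on the log2 scale (adjusted p = 0.00535), but only by 0.74 without control mice 3, 4 and 5. Gsta3, a glutathione transferase, Mmp9, a matrix protease, Fos, an immediate early factor, and Serpina3c, a protease inhibitor, had log2 fold changes of -2.92, -2.75, -2.72 and -2.59 (adjusted p = 0.013, 0.02, 0.0431 and 0.00957). None of these 4 was called with the covariate.

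**Figure D5:**
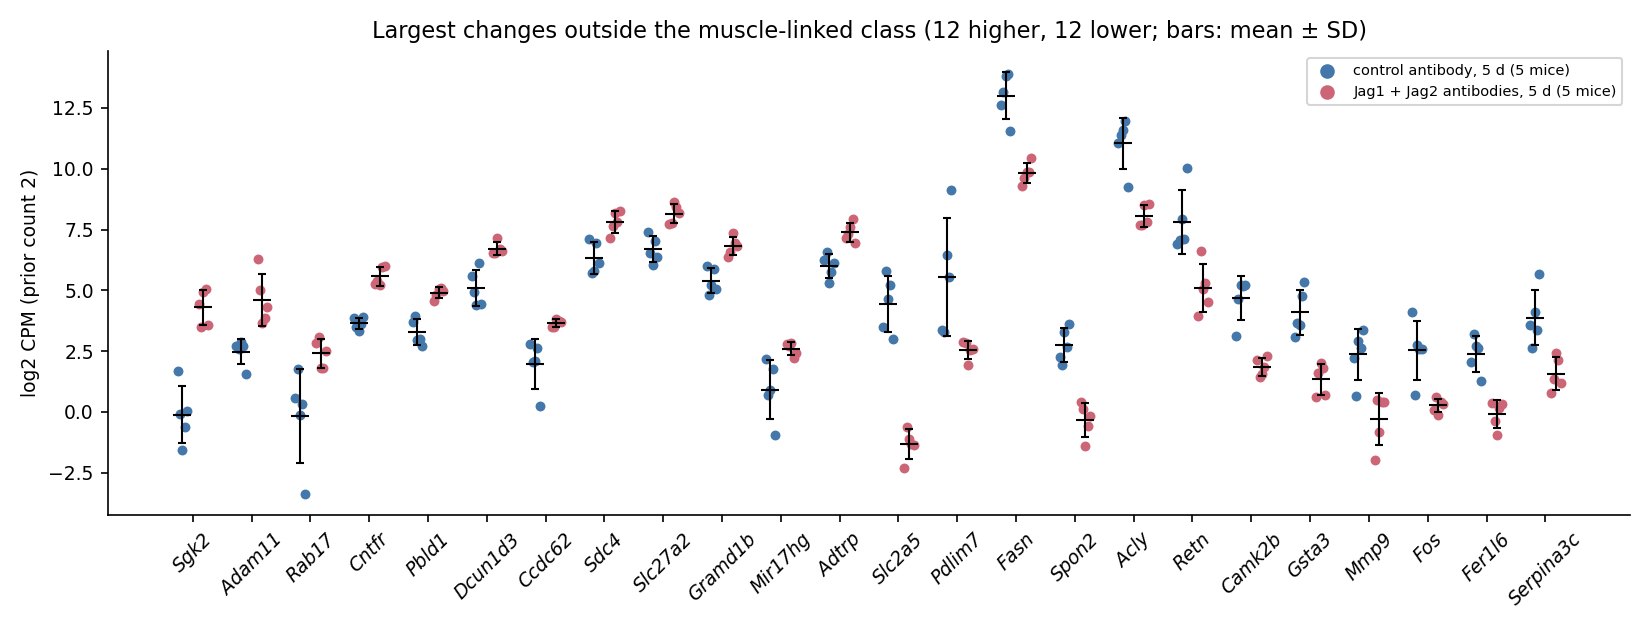
Log2 CPM (prior count 2) per mouse of the 12 genes with the largest rise and the 12 with the largest fall outside the muscle-linked class, chosen for no overlap between the groups, with the mean and SD over 5 mice. Sgk2 rises most (4.22 on the log2 scale) and Slc2a5 falls most (-6.37).

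Markers of the other cells of the depot were described by the same counts, beside 5.93% called lower and 2.09% higher over all tested genes. Fibroblast and progenitor genes had 4 of 10 called lower (Col1a1, Col1a2, Col3a1 and Dpt) and 0 higher, with a median of -1.40. Col3a1, a fibrillar collagen, was at 1678, 733, 2971, 1429 and 1334 CPM in the control mice and 488, 708, 396, 246 and 687 CPM in the Jag antibody mice, without overlap (-1.69, adjusted p = 0.00542, SE 0.36), while Col1a1 overlapped through control mouse 2 (-1.99, adjusted p = 0.00542, SE 0.42). Dcn, which defines the same cells, was not called (-0.36, adjusted p = 0.434, SE 0.26), and 0 of the 10 were called with the covariate (3 at an unadjusted p under 0.05, median -0.49). The list summed to 1581 to 6546 CPM in control and 932 to 1859 CPM in Jag antibody mice. Pericyte and smooth muscle genes had 3 of 11 called lower, Rgs5, Cox4i2 and Pdgfrb, with a median of -0.59. Rgs5, a pericyte regulator of G proteins, was at 530.3, 192, 329, 381 and 176 CPM in the control mice and 134, 91.2, 147, 125 and 109.5 CPM in the Jag antibody mice. It did not overlap (-1.41, adjusted p = 0.00598, SE 0.30) and held with the covariate (-1.48, adjusted p = 0.0433).

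Endothelial genes had 0 of 10 called (median 0.25), and Pecam1 was at 68.5 to 182 CPM in control and 142 to 202 CPM in Jag antibody mice (0.38, adjusted p = 0.252, SE 0.20). Macrophage genes had 0 of 10 called (median -0.78), neutrophil genes 0 of 5, lymphocyte genes 0 of 8, Schwann cell genes 0 of 7 and erythroid genes 0 of 5. At an unadjusted p under 0.05 in edgeR stood 1 endothelial, 2 macrophage and 1 neutrophil gene and 0 of the other lists, and DESeq2 called 1 neutrophil gene lower and limma 0 in any of them. S100a8, a neutrophil gene, was at 43.1 CPM in control mouse 5 and at 0.154 to 1.55 CPM in the other 9 mice. Its partner S100a9 was at 5.29 CPM in control mouse 5 and 0.667 to 1.76 CPM in the others. Csf3r, of the same list, did not set this mouse apart, at 4.36 CPM against 4.39 CPM in Jag antibody mouse 6. Control mouse 5 was also apart in muscle, Retn and Tpi1. The part of this mouse in counts over all genes is given in the closing text by leaving it out.

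With the muscle score as a covariate, 89 of 17079 genes (0.521%) were called, 72 lower (0.422%) and 17 higher (0.0995%), against 1369 (8.02%) without it. Of the 89, 82 had been called in the same direction. Among the named genes, those called in both fits were Slc2a5, Fasn, Acly, Acaca, Acss2, Slc25a1, Pgd, Nsdhl, Pkm, Spon2, Camk2b, Fer1l6 and Rgs5, all lower, and Sgk2, Adam11, Cntfr, Dcun1d3 and Ccdc62, all higher. Of these 18, Slc2a5, Fer1l6 and Nsdhl were not called by limma on log2(FPKM + 1), and Pkm and Ccdc62 not in a fit of only the mice compared. Pkm, Sgk2 and Cntfr were not called with the percent of counts in muscle-linked genes as the covariate, and Cntfr not without a low-count filter. Nsdhl lost its call without control mouse 2 or Jag antibody mouse 6 or 10, and Cntfr without control mouse 3 or 5 or Jag antibody mouse 9 or 10.

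Outside the muscle lists, calls that ended without control mouse 5 alone were those of Sdc4, Gsta3, Tpi1 and Serpina3c. Calls that ended without control mouse 5 and also without other single mice were those of Retn, Mmp9, Ldha and Cox4i2 (1 or more Jag antibody mice), of Dpt (control mouse 3) and of Pbld1 (control mouse 3 or Jag antibody mouse 8). Mvd lost its call without control mouse 3 or Jag antibody mouse 8. Calls were lost in 5 of 10 such fits for Pdgfrb and Gpi1, in 6 for Ppargc1a, in 7 for Crym, in 8 for Rab17, Aqp7, Fos and Mir17hg and in 9 for Pmvk. Leaving out the 3 control mice of highest muscle score left 2 control mice against 5 and 4 called genes in all, so calls were largely lost. Values for Fasn (-3.04), Acly (-3.12), Slc2a5 (-6.66), Sgk2 (3.43), Adam11 (2.34), Lep (-2.64) and Rgs5 (-1.57) stayed near those with all mice. Those of Mb (-2.12), Myl1 (-2.01) and Tnni2 (-6.92) shrank from -7.99, -6.63 and -12.19.

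Whether the 5 d difference differed from those at the other times was tested as a difference between fold changes. Against 7 d, 220 genes (1.29%) were called, 199 with a more negative and 21 with a more positive value at 5 d, 71 of them muscle-linked. Without Jag antibody mouse 6 at 7 d, whose muscle score was 12.3, 1 gene was called, and in a fit of only the mice compared 2 were. Against 15 h, 17 genes (0.0995%) were called, 13 more negative and 4 more positive. With the muscle covariate both counts were 0, with 1238 and 1262 genes at an unadjusted p under 0.05. Of the 70 muscle list genes 10 differed between 5 d and 7 d (66 in DESeq2), and edgeR called 0 for the antibody at 15 h or at 7 d, with 1 at an unadjusted p under 0.05 at each time. Myl1, for one, had -0.63 at 15 h and -0.05 at 7 d, and its 5 d value differed from that at 7 d by -6.58 (adjusted p = 0.0471, SE 1.72).

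For genes of fatty acid synthesis the difference between times did not pass the threshold. Fasn had log2 fold changes of -0.12 (adjusted p = 0.989) at 15 h and -1.26 (adjusted p = 0.34) at 7 d, and its 5 d value did not pass the test against either (adjusted p = 0.157 and 0.313). Of the fatty acid synthesis list, 0 were called at 15 h, with 0 at an unadjusted p under 0.05 (median -0.21), and 5 were called lower at 7 d (median -1.26). The shares of all tested genes called at 15 h and at 7 d are not given here. In edgeR and in DESeq2 0 of 21 differed between 5 d and either time, with 1 at an unadjusted p under 0.05 in edgeR against 7 d and 9 against 15 h. Pgd and Acss2 were among those lower at 7 d (-1.27 [adjusted p = 0.0454] and -1.96 [adjusted p = 0.0254]). Sgk2 was higher at 7 d as well (3.24, adjusted p = 0.0393), as were Cntfr (2.03, adjusted p = 0.0385) and Gramd1b (1.82, adjusted p = 0.000879). Fer1l6, Rgs5 and Cox4i2 were lower at 7 d too (-2.74 [adjusted p = 0.00095], -2.37 [adjusted p = 2.54e-05] and -2.40 [adjusted p = 5.95e-05]). Spon2 differed between 5 d and 15 h by -4.22 (adjusted p = 0.00243, SE 0.65), and Camk2b between 5 d and 7 d by -2.54 (adjusted p = 0.0355, SE 0.60).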

How the data were processed

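Per the labels, brown adipose tissue RNA was extracted with Trizol and columns and read as single-end 50 bp reads on a HiSeq 4000. The authors deposited raw counts per Ensembl gene (52636 genes, 52403 matched to a symbol) and a companion table of FPKM, used for 1 alternative at 2 pseudocounts. GSNAP and limma are named in the submitters' processing notes; the genome build, the counting program and the use of strand are not given in the sources used here. Columns were matched to mice through the labels' descriptions.

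In R 4.3.3, edgeR 4.0.16 tested the counts: filterByExpr over the 8 groups (17079 genes), TMM scaling, robust dispersions and quasi-likelihood F tests in 1 model of the 40 mice, adjusted by Benjamini-Hochberg. Standard errors are those implied by the F statistic. Log2 CPM used a prior count of 2. A score or library measure of 5 against 5 mice was tested by exact permutation. Coordinates are those of GENCODE M21 on GRCm38 for the Ensembl identifiers (17050 of 17079 matched). The methods were tested on simulated counts.

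The members, gene lists and promoter motifs were chosen with earlier results of these data known. Named genes are the 12 largest called changes per direction outside the muscle-linked class and the 5 largest within it (mean log2 CPM of at least 1, no overlap, no predicted symbol), up to 6 called and 3 uncalled genes per list (2 and 0 for muscle lists), Jag1 and Jag2. Myod1, Me1, Scd2, Sqle, Lss, Srebf1, Mlxipl, Slc2a4, Adipoq, Pparg, Hes1, Hey1 and Klf9 are list members named after their values were seen, as were genes at the class edge. Some genes that the rule names are not reported here. Alternatives were DESeq2 1.42.0, RLE factors, TMM without muscle-linked and mitochondrial genes, no low-count filter, only the mice compared, the muscle score as covariate, limma 3.58.1 on log2(FPKM + 1) and log2(FPKM + 0.1), other class thresholds, the title number as a replicate block and leaving out each mouse. Chosen after seeing the data were the percent of counts in muscle-linked genes as a covariate, and leaving out the 3 control mice of highest muscle score.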

Additional observations from a re-analysis of the deposited data

Results flagged for a closer look

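In 268 groups of 5 mice, 1 for each group and each named gene or library measure, 15 had a highest or lowest mouse far from the others, its gap being over 0.71 of the group's range. Chance flags about 1 in 20 groups, or 13.4 here. All values are log2 CPM with the nearest mouse in brackets. Among control mice, mouse 5 was low for Adam11 at 1.56 (2.58) and high for S100a8 at 5.43 (0.13). Control mouse 2 was high for Cidea at 12.49 (11.24) and Atp5b at 13.19 (12.58), and control mouse 1 was low for Gpi1 at 6.78 (7.37) and Camk2b at 3.13 (4.66). Among Jag antibody mice, mouse 7 was high for Csrp3 at -0.75 (-3.02) and Sln at -1.53 (-3.37), both near the level of no counts, and mouse 10 was high for Eef1a2 at -3.02 (-3.37), which is 1 count. Jag antibody mouse 6 was low for Acaca at 6.50 (7.10) and high for Cd79b at 2.67 (0.78). Mouse 8 was low for Tkt at 9.99 (10.53) and Pkm at 7.74 (8.07) and high for Dcun1d3 at 7.16 (6.71), and mouse 9 was high for Pgd at 7.36 (7.12).

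The antibody difference at 5 d differed from that at another time, by the test of the difference in edgeR, for 12 of the 130 named genes. The 130 include 66 genes called at 5 d, so they were partly picked by values that this test uses. Their count is therefore not independent evidence of a difference between times. Over all tested genes, 1.29% were called against 7 d and 0.0995% against 15 h. Relative to 7 d the difference of log2 fold changes was -14.86 for Csrp3, -14.31 for Sln, -13.21 for Chrna1, -11.48 for Myl3, -11.43 for Mrln, -9.78 for Mb and -6.58 for Myl1, all muscle-linked, and -4.69 for Pdlim7, just under that class. It was -3.51 for Serpina3c, -2.54 for Camk2b and -1.94 for Mfng. That of Chrna1 is a fitted value that depends on the prior count, since a group is at 0 counts. Relative to 15 h it was -4.22 for Spon2. With the muscle score as a covariate none of these differences was called.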

How the results depend on the processing

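Over all genes (1369 called), 837 were called with no low-count filter, 431 in a fit of only the mice compared, 89 with the muscle score and 113 with the muscle-linked percent as covariate, and 4 without the 3 control mice of highest muscle score. For muscle-linked genes (418) these gave 220, 229, 0, 5 and 0, limma on log2(FPKM + 1) gave 237, and r of at least 0.8 gave 219. For other genes (951) they gave 617, 202, 89, 108 and 4, and DESeq2 gave 1473. Of the difference from 7 d (220), DESeq2 called 964, no filter 63, only the mice compared 2 and the muscle covariate 0. Of that from 15 h (17) the same settings called 498, 6, 2 and 0. RLE factors moved the median of all genes by -0.06. Ckmt2, Myot and Tnnt3 turned to 0.208, 0.0601 and 0.134 with the muscle covariate. Leaving out 1 mouse gave 384 (control mouse 5) to 2833 genes (control mouse 1), 60 to 508 muscle-linked and 324 to 2325 other genes in the same 2 fits, 1 (Jag antibody mouse 6 at 7 d) to 951 (control mouse 2) against 7 d, 2 (control mouse 5 or Jag antibody mouse 6) to 186 (control mouse 1) against 15 h, and -11.24 to -9.09 for the muscle score difference. The cause of these shifts was not tested beyond each setting's construction.

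The 2 groups at 5 d share no title number, so no block could be fitted between them. For the differences between times the replicate block gave 371 genes against 7 d and 51 against 15 h. Same-numbered mice are different animals, their deviations correlated at -0.364 to 0.550 over pairs, and 1 to 4 of 5 mice correlated best with their own number.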

Other observations

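A pair of neuronal genes that no list held is given as values, because they were chosen after those were seen. Uchl1, an abundant enzyme of neurons, was at 0.689 to 6.88 CPM in control and 0.0924 to 1.03 CPM in Jag antibody mice (log2 fold change -2.85, adjusted p = 0.00614, SE 0.61, in edgeR's test), and Tubb3, the neuronal tubulin, at 0.187 to 3.52 CPM in control and 0.0462 to 0.321 CPM in Jag antibody mice (-3.28, adjusted p = 0.00838, SE 0.75). Both genes overlapped between the groups at under 10 CPM, and both were called with the muscle score as a covariate, at -2.95 and -3.59 on the log2 scale.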
